A study of Mus musculus with 2 samples.

Results

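The Mir26 family of the mouse consists of 3 miRNA genes, Mir26a-1, Mir26a-2 and Mir26b, each carried inside an intron of a different Ctdsp phosphatase gene. The genes were taken by symbol, and all 3 were found among the 1973 miRNA genes of the tables. The samples were 2 pools of facial prominences, the neural crest-filled, epithelium-covered swellings from which face and jaws form, taken from healthy B6NCrl embryos at 10.5 days and mixed in sex. Replicate 2 pooled 51 embryos and replicate 1 pooled 69, and both came from total RNA sequenced as small RNA below 30 bases. There is 1 group and no second condition, so the comparisons are between the Mir26 genes, between them and other miRNA genes, and between the pools.

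A miRNA gene is transcribed as part of a longer RNA, here the Ctdsp transcript, from which a hairpin is cut and then trimmed to mature arms, named 5p and 3p after the side of the hairpin. The arm loaded into the silencing complex recognises messenger RNAs mainly through its seed, bases 2 to 8. The miR-26 family is known as a brake on cell division and as a repressor of Ezh2, the histone methyltransferase of the Polycomb complex. Its host genes encode small phosphatases that act on the tail of RNA polymerase II and, with the REST repressor, keep neuronal genes silent outside neurons. In zebrafish, miR-26b was reported to act on the transcript of its own host, ctdsp2, during neurogenesis.

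The mature sequences are shown because the counts of the family turn on them. They come from RefSeq (GRCm38.p6), which held all 3 hairpins and 6 mature entries of the family, 5 of them distinct. They are written from 5′ to 3′ with the seed in capitals.
miR-26a-5p (Mir26a-1 and Mir26a-2): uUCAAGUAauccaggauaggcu
miR-26b-5p (Mir26b): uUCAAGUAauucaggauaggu
miR-26a-1-3p (Mir26a-1): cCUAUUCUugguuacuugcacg
miR-26a-2-3p (Mir26a-2): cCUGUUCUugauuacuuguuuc
miR-26b-3p (Mir26b): cCUGUUCUccauuacuuggcuc

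The 5p arm was the same in Mir26a-1 and Mir26a-2 at all 22 bases. The 5p arm of Mir26b differed from it at 2 of 21 compared bases, written with the miR-26a-5p base first and positions counted from 1 at the 5′ end as C11U and C21U, and ended 1 base earlier. All 3 genes thus share the 5p seed, and no other mature miRNA in the RefSeq table has it. The 3p arms were less alike. Mir26a-1 and Mir26a-2 differed at 6 of 22 bases there, among them A4G inside the seed, while Mir26a-2 and Mir26b differed at 4 of 22 and share the 3p seed.

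The hairpins show how far the identity reaches. In the Mir26a hairpins the capitals mark the longest stretch that both hold, and in Mir26b they mark the longest stretch it has in common with Mir26a-1.
Mir26a-1 (chr9:119031796-119031885, plus strand): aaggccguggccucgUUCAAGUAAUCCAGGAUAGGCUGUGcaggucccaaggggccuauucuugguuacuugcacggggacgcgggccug
Mir26a-2 (chr10:126995530-126995613, plus strand): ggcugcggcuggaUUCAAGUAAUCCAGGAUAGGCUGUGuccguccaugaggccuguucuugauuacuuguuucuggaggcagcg
Mir26b (chr1:74394310-74394394, plus strand): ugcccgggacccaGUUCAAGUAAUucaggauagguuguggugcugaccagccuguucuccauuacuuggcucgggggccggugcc

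The stretch common to Mir26a-1 and Mir26a-2 is 25 bases long, and covers the whole 5p arm plus 3 bases after it. The longest stretch that Mir26b has in common with Mir26a-1 is 11 bases, and with Mir26a-2 10 bases. Searched with windows of 22 bases, 4 windows of each Mir26a hairpin occur in another RefSeq miRNA hairpin and no window of Mir26b does. No window of 26 bases of any Mir26 hairpin occurs in another. Across all GENCODE M21 transcripts, the 5p arm of miR-26a was found only in the Mir26a-1 and Mir26a-2 hairpins, and each of the other 4 mature sequences only in its own hairpin. A read that lies within the 25-base stretch therefore matches both loci equally. The tables list reads that map to several places on a line of their own, ahead of the genes. The sources used here do not state the settings by which reads were put on that line, so that reads of the 25-base stretch lie there is a reading of the table's layout. The counts of Mir26a-1 and Mir26a-2 are uncertain for this reason.

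**Figure D1:**
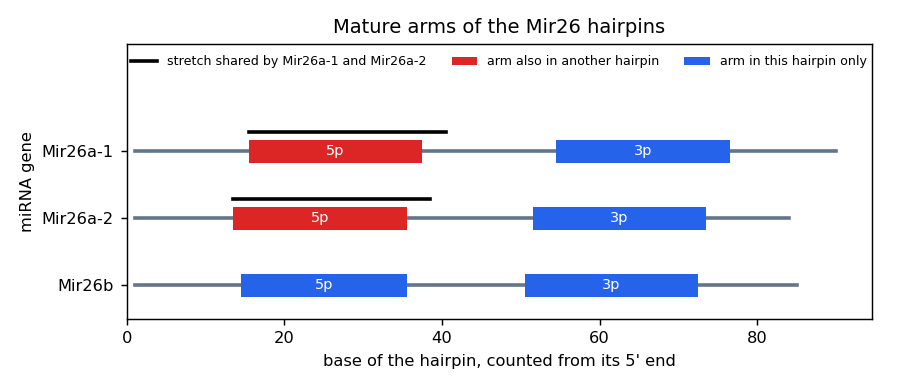
Positions of the mature arms along the 3 Mir26 hairpins, in bases from the 5′ end of each hairpin. Red bars are arms that also occur in another hairpin, blue bars are arms found in 1 hairpin, and the black line is the 25-base stretch held by Mir26a-1 and Mir26a-2. The 5p arms of the Mir26a genes are red, and both arms of Mir26b are blue.

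The arrangement in the host genes was alike in all 3. Each hairpin lies on the strand of its host and in an intron of the principal transcript (mm10, GENCODE M21). Mir26a-1 (ENSMUSG00000065513.1) lies in intron 5 of 7 of Ctdspl, which is 3283 bases long. Mir26a-2 (ENSMUSG00000065430.1) lies in intron 5 of 7 of Ctdsp2, 1946 bases long, and is 241 bases ahead of the next exon. Mir26b (ENSMUSG00000065468.1) lies in intron 4 of 6 of Ctdsp1, the shortest of the 3 introns with 564 bases. No exon of any annotated host transcript covers a Mir26 hairpin, and no annotated gene overlaps one on the opposite strand. The remaining member of the phosphatase family, Ctdspl2, holds no annotated miRNA gene. Host transcripts were not measured, as the tables count miRNA genes only.

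By assigned counts Mir26b was among the most abundant miRNA genes of the facial prominences, and Mir26a-1 and Mir26a-2 had few counts. Levels are in CPM, the count on the strand of the gene scaled to 1000000 over the sum of such counts in the library, which was 3517226 in replicate 2 and 2853511 in replicate 1. Detection required 10 or more counts in both libraries, which all 3 Mir26 genes reached and 376 of the 1973 genes in all. Mir26b had 94046 counts in replicate 2 and 77978 in replicate 1. Its level was 26739 CPM in replicate 2 (exact Clopper-Pearson 95% interval 26570 to 26908) and 27327 CPM in replicate 1 (27138 to 27517), a mean of 27033 ± 416 CPM (SD, n = 2). The intervals do not overlap, and replicate 2 is the lower of the pools.

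Mir26a-2 had 106 counts in replicate 2 and 99 in replicate 1. This gave 30.1 CPM in replicate 2 (24.7 to 36.5) and 34.7 CPM in replicate 1 (28.2 to 42.2), a mean of 32.4 ± 3.22 CPM, with intervals that overlap. Mir26a-1 was the lowest of the family, with 41 counts in replicate 2 and 16 in replicate 1. Its level was 11.7 CPM in replicate 2 (8.37 to 15.8) and 5.61 CPM in replicate 1 (3.20 to 9.11), a mean of 8.63 ± 4.28 CPM. The SD is large beside this level, and the mean of Mir26a-1 is the least certain of the 3. On the strand opposite each hairpin both libraries had 0 counts. A count of 0 leaves room for 3 counts, or 0.853 CPM in replicate 2 and 1.05 CPM in replicate 1. PCR copies of a molecule are counted as separate reads, so these intervals and limits describe the counting error alone.

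**Figure D2:**
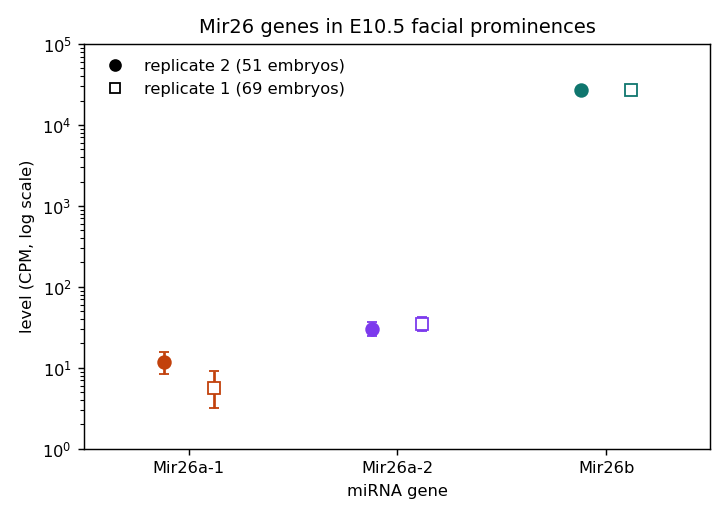
Level of each Mir26 gene in CPM on a log axis, with filled circles for replicate 2 and open squares for replicate 1. Bars are exact 95% intervals of the counts. Mir26b stands at 26739 and 27327 CPM, Mir26a-2 at 30.1 and 34.7 CPM, and Mir26a-1 at 11.7 and 5.61 CPM.

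The order Mir26b, Mir26a-2, Mir26a-1 held in both libraries, and each gap was larger than the SD of either gene. Mir26b had 640 times the counts of the Mir26a genes together in replicate 2 (exact interval 544 to 757) and 678 times in replicate 1 (565 to 821). It held 99.84% of the family's counts in replicate 2 (99.82% to 99.87%) and 99.85% in replicate 1 (99.82% to 99.88%). The Mir26a genes together had 41.8 CPM in replicate 2 and 40.3 CPM in replicate 1, a mean of 41.0 ± 1.06 CPM. With both Mir26a genes included, the family took 2.68% of all counts in replicate 2 and 2.74% in replicate 1. The sum over the family is a lower limit to the extent that reads of miR-26a-5p are on the line for several places.

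Reads mapping to several places numbered 2236310 in replicate 2 (25.9% of its 8643947 reads) and 1883496 in replicate 1 (27.6% of its 6828248 reads). That is 0.636 and 0.660 such reads for each count on a miRNA gene, in replicate 2 and replicate 1. How many of them carried miR-26a-5p cannot be read from the tables, so the order of Mir26b and Mir26a is an order of assigned counts. The part of the shared 5p arm in the low counts of the Mir26a genes was not tested.

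By mean level Mir26b was 7th of all 1973 genes, at rank 7 in each library. Genes with an arm in another hairpin may miss reads, so the ranks are ranks of assigned counts. Above it stood Mir130a with 31887 ± 1240 CPM and below it Mir322, a miRNA of the X chromosome that restrains the cell cycle, with 25386 ± 307 CPM. Both gaps kept their direction in the 2 libraries and were larger than the SD of either gene. Mir26a-2 was at rank 261 (265 in replicate 2 and 258 in replicate 1). Its neighbours in the order, Mir181b-1 with 32.6 ± 9.46 CPM and Mir3066 with 32.2 ± 1.47 CPM, did not differ from it beyond their spread. Mir26a-1 was at rank 328 (314 in replicate 2 and 348 in replicate 1), and its neighbours Mir1945 (8.68 ± 0.613 CPM) and Mirlet7b (8.45 ± 3.91 CPM) did not differ from it beyond their spread either.

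**Figure D3:**
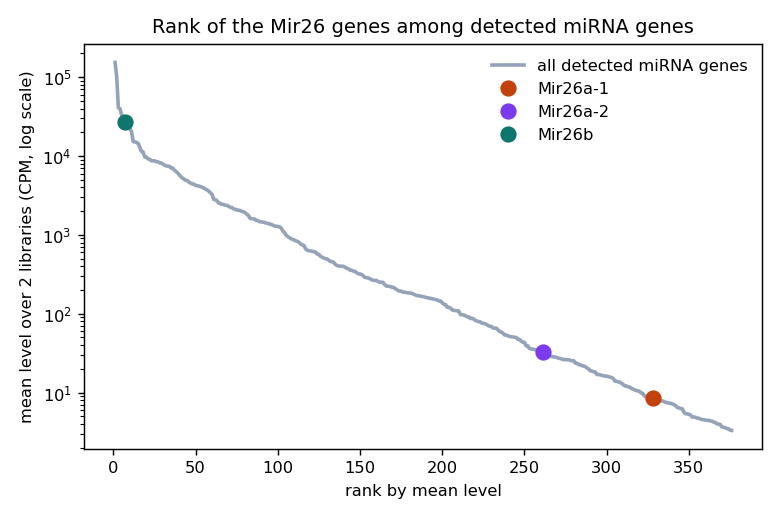
Mean level over the 2 libraries (CPM, log axis) of the 376 detected miRNA genes against their rank. The coloured points are the Mir26 genes, with Mir26b near the top of the curve at rank 7, and Mir26a-2 and Mir26a-1 on its lower part at ranks 261 and 328.

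Likeness to other genes was measured as the distance between log2(CPM + 0.5) values over the 2 libraries, among detected genes. With 2 libraries this mostly compares levels. Nearest to Mir26b were Mir322 (distance 0.13), Mir99b in Spaca6 (0.15, 25214 ± 1011 CPM) and Mir130a (0.35). Nearest to Mir26a-2 were Mir6240 (0.13, 33.6 ± 6.06 CPM), Mir488 in Astn1 (0.19, 29.6 ± 3.70 CPM) and Mir7-2 (0.20, 35.2 ± 0.749 CPM), 1 of several gene copies of miR-7. Nearest to Mir26a-1 were Mir3057 in Apba3 (0.17, 8.70 ± 3.38 CPM), Mir7658 in Plekhn1 (0.29, 8.45 ± 2.53 CPM) and Mir1947 in Lmln (0.38, 7.70 ± 1.97 CPM).

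Between the pools the Mir26 genes differed in different directions. For every gene with 10 or more counts over both libraries, an exact binomial test (two-sided) asked whether its counts were divided between the libraries as the totals were. The p-values of the 449 genes were adjusted by the Benjamini-Hochberg method, with a threshold of 0.05. The test compares these libraries beyond counting error and no conditions, and the ratio is log2 of replicate 2 over replicate 1 with 0.5 CPM added. Of the 3 Mir26 genes 2 passed, 1 higher and 1 lower in replicate 2, where 40.3% of all tested genes passed, 20.0% higher and 20.3% lower.

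Mir26a-1 was higher in replicate 2, with 11.7 CPM there against 5.61 CPM in replicate 1, a log2 ratio of 0.99 (adjusted p = 0.030, exact binomial test). The ratio of its CPM was 2.08, with an exact interval of 1.14 to 3.97. It rests on 41 and 16 counts. Of 71 other genes within 2-fold of its mean level, 6 passed the test and 3 differed at least as much between the pools. Those 3 were lower in replicate 2, and the log2 ratios of the 71 ran from -1.58 to 0.97. The median absolute log2 ratio there was 0.34. Mir26b, with a log2 ratio of -0.031 (adjusted p = 2.8e-05, exact binomial test), was slightly lower in replicate 2. With edgeR's TMM factors its log2 ratio was -0.012 and it did not pass (adjusted p = 0.18, exact binomial test). All 12 other genes within 2-fold of its level passed as well, and 10 of them had a larger difference between the pools than Mir26b. Mir26a-2 had a log2 ratio of -0.20 and did not pass (adjusted p = 0.51, exact binomial test), with an exact interval of its CPM ratio from 0.654 to 1.15.

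The balance of the Mir26a genes was less even in replicate 1. Mir26a-2 had 2.59 times the counts of Mir26a-1 in replicate 2 (exact interval 1.79 to 3.80) and 6.19 times in replicate 1 (3.63 to 11.2). The intervals overlap slightly, and the difference between the ratios was not tested. Mir26a-1 supplied 27.9% of the Mir26a counts in replicate 2 and 13.9% in replicate 1.

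**Figure D4:**
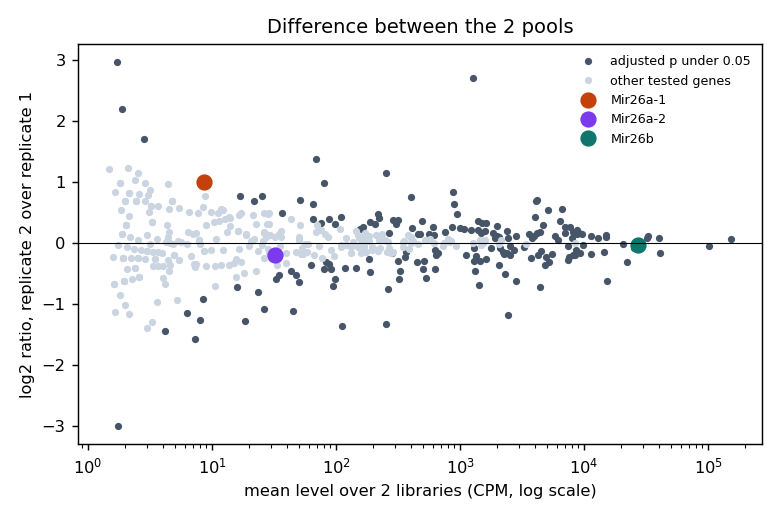
Log2 ratio of replicate 2 over replicate 1 against the mean level (CPM, log axis) of 449 tested genes, dark where the adjusted p is under 0.05. Mir26a-1 lies at 0.99, Mir26a-2 at -0.20 and Mir26b at -0.031 with a level of 27033 CPM.

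Levels ranged widely among genes that, like the Mir26a genes, have a mature arm in common with another hairpin. Of the 1973 genes, 916 had mature sequences in the RefSeq table. Of these, 50 had some but not all arms found whole in another hairpin, and 37 of the 50 (74.0%) were detected, with a median of 68.9 CPM over those detected. Among the 831 genes with no such arm, Mir26b among them, 295 (35.5%) were detected with a median of 211 CPM. The classes go by annotated arms found whole, so copies can be split between them. Mir125b-1 is in the class without such an arm, and Mir125b-2 is in the class with some. In the partly identical class 4 of the 37 detected genes lay below Mir26a-1 and 12 below Mir26a-2. Its highest gene was Mir92-1, of the growth-promoting Mir17-92 cluster, with 9697 CPM, and 1 of its 2 arms occurs in another hairpin. In the class without a common arm 6 detected genes lay above Mir26b, led by Mir335 with 153896 CPM. Of the 35 genes with all arms in common, 7 (20%) were detected, the lowest share of the classes. The highest of these 7 was Mir199b, with 1330 CPM.

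**Figure D5:**
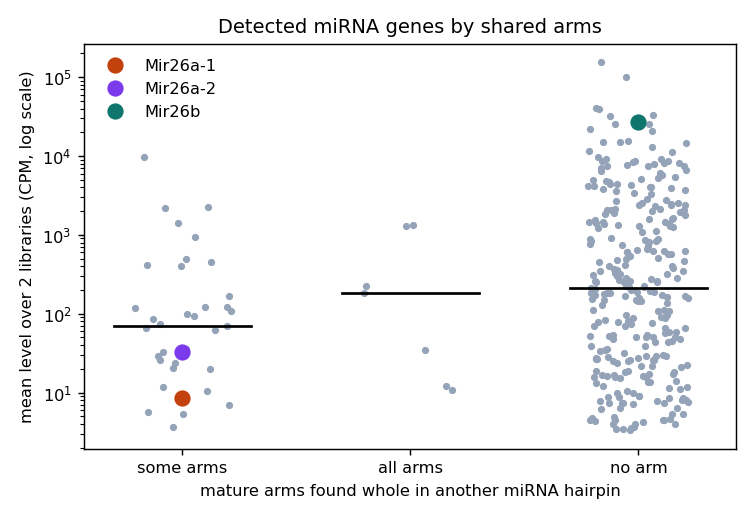
Mean level (CPM, log axis) of detected miRNA genes by whether some, all or none of their mature arms occur in another hairpin. Each grey point is a gene and the black line is the median of the class, 68.9 CPM for some arms, 184 CPM for all arms and 211 CPM for none. Mir26a-1 and Mir26a-2 are in the class with some arms, Mir26b in the class with none.

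Other miRNA families in introns of related coding genes are the closest counterparts to the Mir26 arrangement. All 12 listed genes of 5 such families were detected, with levels from 5.40 to 1293 CPM and a median of 69.1 CPM. Of these, 1 was higher and 2 were lower in replicate 2, where 20.0% of all tested genes were higher and 20.3% lower. Their median log2 ratio was -0.012, beside 0.0054 over all detected genes. By assigned counts, Mir26b had a higher level than each of the 12 in both libraries.

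The Pank family, whose hosts make the first enzyme of coenzyme A synthesis, had its 3 genes in the same kind of order as Mir26, with smaller gaps between Mir107 and the others. Mir107 in Pank1, with no arm found in another hairpin, had 1293 ± 184 CPM. Mir103-2 in Pank2 had 121 ± 1.55 CPM and Mir103-1 in Pank3 5.40 ± 0.795 CPM, and these have an arm in common. Mir107 was lower in replicate 2, with a log2 ratio of -0.29 (adjusted p = 4.9e-19, exact binomial test).

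In the introns of the axon guidance genes Slit3 and Slit2, Mir218-2 had 74.9 ± 7.83 CPM and Mir218-1 10.5 ± 1.99 CPM. Mir128-1 in R3hdm1 had 68.9 ± 6.27 CPM and Mir128-2 in Arpp21 11.8 ± 2.18 CPM. Both pairs have an arm in common, and in each pair the order held in both libraries.

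The channel genes Trpm3 and Trpm1 carry Mir204 with 402 ± 0.291 CPM and Mir211 with 321 ± 92.2 CPM. Mir211, known from pigment cells, was lower in replicate 2 (log2 ratio -0.59, adjusted p = 3.0e-19, exact binomial test). The myosin genes carry Mir208b in Myh7 with 69.3 ± 44.0 CPM, Mir208a in Myh6 with 9.86 ± 2.54 CPM and Mir499 in Myh7b with 7.84 ± 0.177 CPM. Mir208b was the gene of these families that was higher in replicate 2 (log2 ratio 1.38, adjusted p = 3.2e-20, exact binomial test). None of the 5 genes of the Trpm and myosin families has an arm found in another hairpin.

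Mir26b was also above the 15 matched members of a list of 16 miRNAs known for restraining the cell cycle (the Mir15, Mir16 and Mir195 family, Mir322 and Mir503, the Mir34 and Mir449 family, and the Mir29 family). The order is by assigned counts, as the Mir16 and Mir29b genes of the list have an arm in another hairpin and may miss reads. Of the 15, 13 were detected and tested, 4 higher and 4 lower in replicate 2, beside 20.0% higher and 20.3% lower over all tested genes. Their median log2 ratio was 0.043. Mir322 led them with 25386 ± 307 CPM, ahead of Mir15a, which lies in Dleu2 and is known to act on cyclins and Bcl2, with 3938 ± 212 CPM. Mir322 had a log2 ratio of -0.025 (adjusted p = 0.0021, exact binomial test), close to that of Mir26b, and Mir15a 0.11 (adjusted p = 1.1e-08, exact binomial test).

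Markers of the labelled tissue were present. Mesenchymal miRNAs had a summed level of 15124 CPM (replicate 2) and 17003 CPM (replicate 1), led by Mir214 with 14538 CPM and Mir199b, and all 4 were detected. All annotated arms of Mir199a-1, Mir199a-2 and Mir199b occur in another hairpin, so this sum may miss reads. Epithelial miRNAs, led by Mir205 with 9187 CPM and Mir429 with 7419 CPM, had a summed level of 23965 CPM (replicate 2) and 28691 CPM (replicate 1), with 7 of 7 detected. The marker lists of blood, neural, striated muscle and liver cells had lower sums. Other cell types, such as those of vessels, had no list, and Mir126a in Egfl7, in none of the lists, had 33005 CPM. Blood miRNAs (Mir451a and Mir223 highest) summed to 458 CPM in replicate 2 and 665 in replicate 1, neural ones (Mir137 and Mir9-3 highest) to 630 and 723, striated muscle ones (Mir208b and Mir206 highest) to 131 and 80.3, and the liver marker Mir122 had 15.4 and 12.6 CPM. Of 6 matched neural genes 2 were detected, and all arms of Mir9-3 occur in another hairpin, so the neural sum may miss reads and does not show that neural miRNAs were low. The epithelial, mesenchymal, blood and neural sums were lower in replicate 2, as Mir26b was by a smaller amount. The striated muscle sum and the liver marker were higher there. The part of these cell types in the Mir26b difference was not tested. In a tissue sample, fewer cells of a type and less RNA per cell cannot be told apart.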

How the data were processed

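MicroRNA sequencing was done on 2 biological replicates of 1 group. The authors deposited 1 table of raw read counts per library, by miRNA gene of GENCODE M4 on mm10, per the accompanying text files. For the aligner and the counter, a name is not given in the sources used here. Each table has 4 summary lines (reads unmapped, mapping to several places, outside genes, ambiguous), kept out of library sizes, and 3 columns of counts: either strand, gene strand and opposite strand. The gene strand (97.6% of gene reads in each library) was used. Unmapped reads were 24.1% in replicate 2 and 21.6% in replicate 1, and reads outside genes 9.32% and 9.01%. Nothing says whether the pools share embryos or litters, and p-values measure differences between these libraries only. A chi-square of 51.2 per degree of freedom separated their counts, far more than sampling noise.

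Symbols and coordinates came from GENCODE M21 (GRCm38) by identifier without version, for 1894 of 1973 identifiers, and sequences from RefSeq. CPM, intervals and exact binomial tests were computed in Python 3.11.15 with scipy 1.17.1, and scaling factors with edgeR 4.0.16 and DESeq2 1.42.0. With 1 group, no edgeR contrast could be fitted. The binomial test was tested on simulated data whose only noise was sampling noise. That check does not cover the larger spread between the real libraries. Named genes are the Mir26 genes, the 3 genes nearest to each in log2(CPM + 0.5), miRNAs with the same seed, the 2 highest detected members of each list and all detected genes of the list in introns of related hosts. Neighbours in rank, the highest gene of each class and the gene pairs in the closing section are extra to the rule, picked once their values were known. The members and lists were chosen with earlier results of these data known. Alternatives were another count column, library total, scaling, pseudocount, filter and detection limit, and leaving out each replicate.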

Additional observations from a re-analysis of the deposited data

How the results depend on the processing

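Leaving out 1 of 2 replicates gives the value of the other, always within 1 SD of the mean, and the pseudocount does not enter the test, so these 30 recomputed values say nothing of stability. Of the other 62, none reversed, 47 kept their direction, side of the threshold or size, 14 moved and 1 lost its call. The unstranded count cannot change the shares within the family, which has no counts on the opposite strand. With all reads as the library total the mean levels were 3.54 CPM for Mir26a-1, 13.4 CPM for Mir26a-2, 11150 CPM for Mir26b and 11167 CPM for the family. Without the highest gene in the total they were 38.3 CPM for Mir26a-2, 31949 CPM for Mir26b and 31997 CPM for the family. The unstranded count gave 26374 CPM for Mir26b, 26414 CPM for the family and rank 270 for Mir26a-2. These shifts follow from the larger or smaller totals, and for the rank from reads on the opposite strand of other genes. With TMM factors the log2 ratio of Mir26b was -0.012 and it no longer passed (adjusted p = 0.18, exact binomial test), whereas it passed under the other 5 alternatives that enter the test. Mir26a-1 passed and Mir26a-2 did not pass under these 6, with adjusted p of Mir26a-1 between 0.023 and 0.049 and its log2 ratio at 0.65 with a pseudocount of 5 CPM. Genes called between the libraries numbered from 169 to 186, against 181. Mir26a-2 over Mir26a-1 was 2.59 without replicate 1 and 6.19 without replicate 2. With at least 50 counts in each library, 7 of 12 genes in introns of related hosts were detected, and the other 3 changes concerned marker lists. The level of Mir26a-1 rests on 41 counts in replicate 2 and 16 in replicate 1.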

Other observations

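The 2 copies of Mir26a can be set beside other numbered pairs of miRNA genes. Among 40 listed gene copies, 38 were matched and 30 detected, led by Mir16-1 with 2248 ± 207 CPM and Mir181a-1 with 2221 ± 152 CPM, and of 32 tested 4 were higher and 10 lower in replicate 2, where 20.0% of all tested genes were higher and 20.3% lower. In 13 pairs with both copies detected, the higher copy had from 1.21 times (Mir138-2 over Mir138-1) to 43.4 times (Mir181b-2 over Mir181b-1) the mean CPM of the lower, with a median of 4.70. Each pair includes a copy with an arm in another hairpin, so the ratios and sums of the pairs are of assigned counts. Mir26a-2 had 3.76 times the mean CPM of Mir26a-1, and 8 of the 13 pairs were more unequal by that measure. That count depends on the library, with 12 of the 13 more unequal in replicate 2 and 3 in replicate 1. The 41.0 CPM of the Mir26a copies together was below the sum of each of the 13 listed pairs, of which Mir128 had the next lowest with 80.7 CPM. The list does not hold every pair. Mir450-1 with 25.6 CPM and Mir450-2 with 5.65 CPM, both detected and not listed, had lower means than Mir26a-2 and Mir26a-1. Mir450-1 was below Mir26a-2 in both libraries. Mir450-2 was below Mir26a-1 in replicate 2 only, as both had 16 counts in replicate 1. The Mir26a copies were thus not the lowest pair of all.

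Ctdsp2 holds a second annotated miRNA gene, Mir546, on the same strand. It had 0 counts in replicate 2, which allows up to 0.853 CPM, and 1 count in replicate 1.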
